A study of Mus musculus with 6 samples.

Results

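The nuclear-encoded subunits of oxidative phosphorylation were followed over 6 arrays of female BALB/c mice. Genes were taken by their symbol on the array platform: names beginning with Nduf and a complex I subunit letter, Sdha to Sdhd, Uqcr, Cox4 to Cox8, and Atp5, with the probe of highest mean where a gene had several. This gave 73 of the 17742 named genes, read by 83 probes. Of these, 69 encode subunits or their isoforms and 4 do not: Emc8 (on the array as Cox4nb), a subunit of the endoplasmic reticulum membrane complex, Dmac2 (as Atp5sl), a complex I assembly factor, Dmac2l (as Atp5s), coupling factor B, and Cox7a2l, a factor of supercomplex assembly. By complex there were 31 genes of complex I, 4 of complex II, 6 of complex III, 17 of complex IV (Ndufa4 and its paralogue Ndufa4l2 among them) and 11 of complex V. Subunits that the platform annotation did not name are not analysed here.

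The mice were untreated (mock) or took SHT (Sheng-Hua-Tang, a traditional herbal formula) orally, 200 mg/kg on 7 consecutive days. Cy5-labelled RNA amplified from brain, ovary and uterus of either kind was read on arrays of 1 colour. There was 1 array for each tissue and treatment, which leaves SHT without replicates and bounds how precise any difference can be. The labels used here do not say the ages of the mice, nor whether an array held RNA of 1 mouse or of several.

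The respiratory chain of the inner mitochondrial membrane passes electrons from NADH (complex I) and succinate (complex II) through complex III to oxygen at complex IV. The proton gradient built on the way drives ATP synthesis by complex V. Most subunits are made in every tissue. A few, mainly of complex IV, exist as isoforms whose genes are used in striated muscle, brown fat, lung, testis or under low oxygen, and brain is among the tissues that respire most.

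The tissue labels of 4 arrays (SHT brain, mock ovary, SHT ovary and mock uterus) went against marker genes. Snap25, a neuronal protein, read 58204 on the array labelled mock brain, 60038 on that labelled SHT ovary and at most 1601 elsewhere. Hsd3b1, an enzyme of steroid synthesis, read 40566 and 51780 on those labelled SHT brain and mock uterus and at most 101.1 elsewhere. Krt5, a keratin of stratified epithelium, read 36716 and 29948 on those labelled mock ovary and SHT uterus and at most 250.2 elsewhere. The closest arrays also paired in this way over all probes, with Pearson correlations of log2 intensity of 0.996, 0.981 and 0.972, so arrays are named by their labels only, and no difference is assigned to a tissue or to SHT. In bulk tissue, fewer cells of a type and less RNA per cell cannot be told apart.

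Promoters of 3 complex IV genes are shown because the results turn on this family: Cox8a, the isoform of most tissues, Cox8b, its counterpart in striated muscle and brown fat, and Cox6a1, the non-muscle form of subunit VIa. Each sequence is the 250 bases before the annotated start, from RefSeq on GRCm38.p6, all on the minus strand, at chr19:7217617-7217866, chr7:140900447-140900696 and chr5:115348959-115349208. Capitals mark matches, on either strand, to the motifs listed after the sequences.
Cox8a: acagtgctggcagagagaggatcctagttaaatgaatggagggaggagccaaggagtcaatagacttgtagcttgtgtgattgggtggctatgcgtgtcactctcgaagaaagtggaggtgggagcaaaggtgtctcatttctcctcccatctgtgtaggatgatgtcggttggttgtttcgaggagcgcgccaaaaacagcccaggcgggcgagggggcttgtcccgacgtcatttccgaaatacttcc
Cox8b: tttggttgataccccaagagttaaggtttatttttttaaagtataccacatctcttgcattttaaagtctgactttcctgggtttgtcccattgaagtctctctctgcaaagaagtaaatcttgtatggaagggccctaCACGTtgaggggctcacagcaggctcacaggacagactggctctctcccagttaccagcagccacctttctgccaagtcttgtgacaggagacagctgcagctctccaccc
Cox6a1: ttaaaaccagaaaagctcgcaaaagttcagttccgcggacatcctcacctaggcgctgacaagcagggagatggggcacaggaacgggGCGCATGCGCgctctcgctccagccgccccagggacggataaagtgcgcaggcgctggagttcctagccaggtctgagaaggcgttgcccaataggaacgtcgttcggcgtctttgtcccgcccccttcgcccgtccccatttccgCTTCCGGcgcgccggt

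The motifs were those named for factors linked to respiratory genes: NRF-1 (its palindromic core, as in the first capitals of Cox6a1), GABP (CCGGAAG), YY1 (AAGATGG), ERR (AAGGTCA), the hypoxia core (ACGTG) and MEF2 (CTA and TAG with 4 bases between them). In Cox6a1 an NRF-1 match began 162 bases and a GABP match 16 bases before the start, with no overlap. Cox8b held 1 hypoxia core, 111 bases before the start. No match was found in the Cox8a window, which says only that these letters are not there. Over 56 subunit promoters in the table, the NRF-1 letters were in 3 (Atp5k, Cox6a1 and Ndufa11), or 5.36%, against 0.781% of 27025 promoters. GABP letters were in 7 (12.5%, against 7.05% of all), the hypoxia core in 12 (21.4%, against 16.6%), ERR in 2 (3.57%, against 4.05%), MEF2 in 1 (1.79%, against 3.23%) and YY1 in 0 (against 4.53%). A match is a description of letters and not a site of binding.

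The first question was how far these genes varied over the arrays. Most subunits were bright, and most stayed within a 2-fold range. A background line was set on each array at the 95th percentile of 529 olfactory receptor genes, taken as silent outside the nose, and lay at 541 (mock) and 275 (SHT) under the label brain, at 312 and 403 under ovary, and at 295 and 318 under uterus. Of the 73 genes, 55 read above the line on all 6 arrays, 6 on some and 12 on none. The 12 were Ndufc2, Ndufs6, Atp5c1, Atp5d, Atp5pb (on the array as Atp5f1), Cox4i2, Cox6c, Cox7a1, Cox7a2l, Cox7b, Cox7b2 and Cox8c. Several of these, such as Atp5d and Cox6c, belong to enzymes that nearly every cell makes, so a dim probe here is a statement about the probe's signal and not about the gene's level. The 6 read above the line on some arrays were Ndufv2, Cox6a2, Cox6b2, Cox8b, Ndufa4l2 and Atp5o. None of the 73 reached the top of the intensity scale, the highest reading being 49309 for Cox5a.

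Variation was measured as the log2 deviation of a gene from its own mean over the 6 arrays, relative to the median gene of each array. It was summarised over genes above a level floor, a mean log2 intensity over the 6 arrays that exceeded that of the median probe (213.9 as an intensity), which 61 of the 73 genes and 58 of the 69 subunits passed. The distance between a subunit's highest and lowest array had a median of 0.81 (1.75-fold), against 1.43 (2.69-fold) over all 10754 genes above the floor and 1.25 (2.37-fold) over the 5721 genes whose mean lay above the 75th percentile of probes. It stayed under 2-fold for 44 of 58 subunits (75.9%), against 31.6% of all genes above the floor and 38.1% of those above the 75th percentile. The median subunit read 7938, and no range was taken over genes as bright as that. The part of level in this evenness was therefore not tested. Complex III, which passes electrons to cytochrome c, was the most even, with a median of 0.48 and 6 of 6 genes under 2-fold. Complex V (0.75, 7 of 9 genes under 2-fold), complex II (0.79, 3 of 4) and complex I (0.82, 23 of 29) came next, and complex IV had the widest median, 0.95, with 5 of 10 under 2-fold. That place rests in part on Cox6a2 (1.57), Cox6b2 (1.84) and Cox8b (4.24), which had readings under the background line, so their ranges have no measured low end. Ndufv2 in complex I and Atp5o in complex V are limited in the same way. Medians without such genes were not taken.

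**Figure D1:**
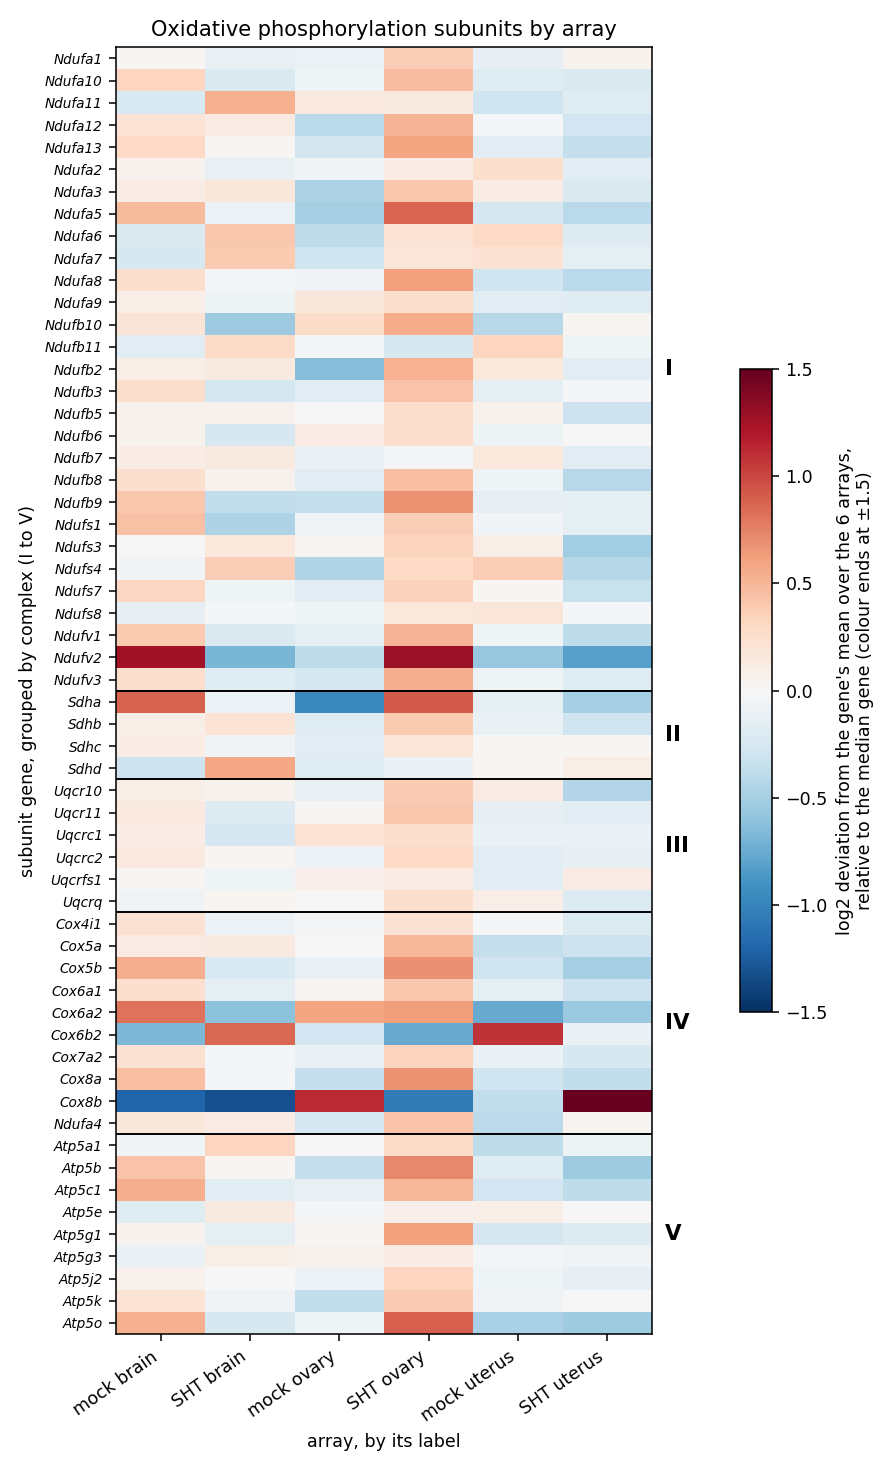
Log2 deviation of each of 58 subunit genes (rows, grouped by complex I to V) on each of the 6 arrays (columns, by label), relative to the median gene, in colour from blue (low) to red (high). Most rows are pale, while Ndufv2, Sdha, Cox6a2, Cox6b2 and Cox8b carry strong colour, and the column labelled SHT ovary is red for most genes.

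The array labelled SHT ovary read highest for 41 of the 58 subunits (70.7%), an array that read highest for 20.6% of all genes above the floor. It was highest for 20 of 29 genes of complex I, 3 of 4 of complex II, 6 of 6 of complex III, 6 of 10 of complex IV and 6 of 9 of complex V. The array labelled SHT uterus read lowest for 24 (41.4%, against 12.99% of all genes), and that labelled mock ovary for 11 (19.0%, against 19.9%). Over the 58 subunits the median deviation was 0.37 on the array labelled SHT ovary, where 53 lay above 0, and 0.12 on that labelled mock brain, where 45 did. It was -0.02 for SHT brain, -0.09 for mock ovary, -0.09 for mock uterus and -0.19 for SHT uterus, the last with 51 subunits below 0. The small negative medians depended on the scaling: as deposited, with no reference to the median gene, the array labelled SHT uterus was at 0.017, 0.067, 0.067, -0.072 and 0.078 for complexes I to V, and that labelled mock ovary was the lowest in each, at -0.23 to -0.41. The array labelled SHT ovary stayed above 0 for each complex under all alternatives run. Complex IV had the widest span of medians, from 0.41 (SHT ovary) and 0.22 (mock brain) to -0.30 (mock uterus) and -0.28 (SHT uterus). Complex III had the narrowest, from 0.27 (SHT ovary) to -0.14 (SHT uterus).

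Level alone was set beside these medians. Over the 588 genes whose mean lay above that of the median subunit (7938), a limit chosen after the values were seen, the median deviations on mock arrays were -0.10 (brain), 0.11 (ovary) and 0.02 (uterus), and on SHT arrays 0.07, 0.04 and -0.02 in that order of labels. Between the arrays labelled SHT ovary and mock brain, the closest of all, 53 of 60 subunits above the pair's floor were higher on that labelled SHT ovary. The median difference was 0.22. The 588 bright genes leaned the same way, at 0.04 on the array labelled SHT ovary and -0.10 on that labelled mock brain. How many of them were higher was not counted, and the part of level in the subunits' difference was not tested.

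**Figure D2:**
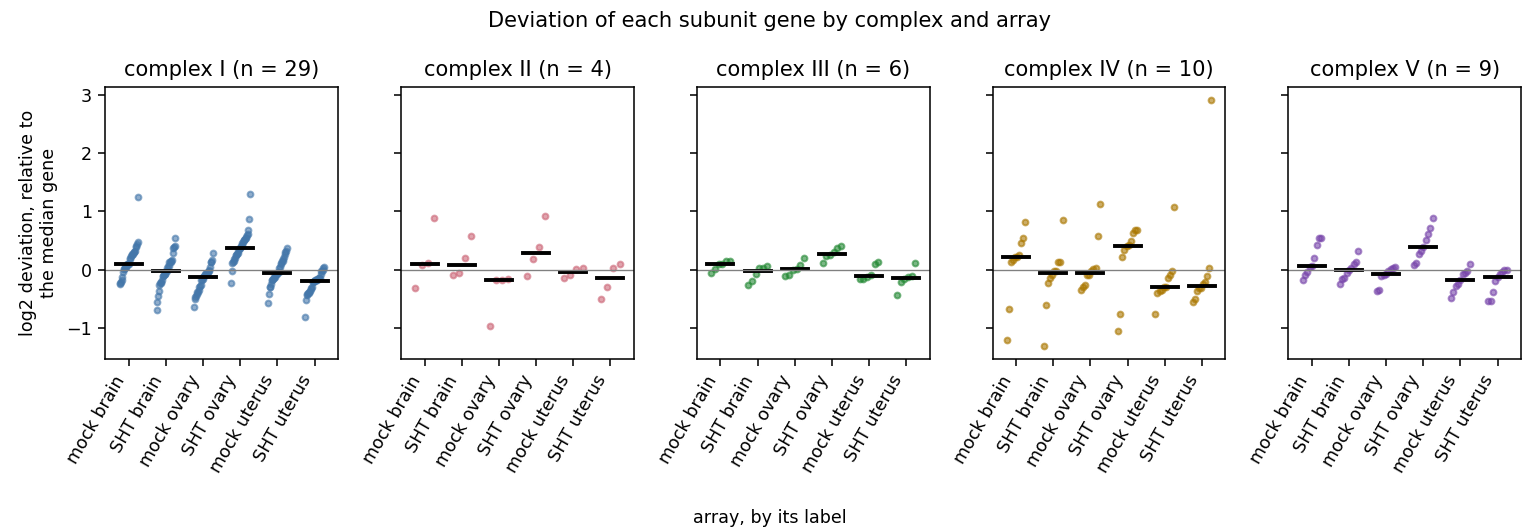
Log2 deviation of each subunit gene above the level floor (points), relative to the median gene, by complex (panels, with the number of genes) and array (horizontal axis), with the median as a black bar. The bar of the array labelled SHT ovary is the highest in each of the 5 panels, and complex IV has the most scattered points.

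Complex I takes electrons from NADH. Its flavin-binding core subunit Ndufv1 read 13417 (mock) and 8832 (SHT) under the label brain, 8362 and 14086 under ovary, and 11602 and 9519 under uterus. All series of 6 values below keep this order: brain, ovary, uterus, with mock before SHT in each. Ndufs1, its largest iron-sulphur subunit, read 4038, 2192, 2583, 3758, 3466 and 3272. Both were highest on the arrays labelled SHT ovary and mock brain, within a 2-fold range over the 6.

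Ndufv2, the partner of Ndufv1 in the NADH module, had the widest spread of readings in complex I, most of them under the background line. It read 571, 149.8, 166, 573, 192 and 165, above the line on the arrays labelled SHT ovary and mock brain only, so its range of 2.12 has no measured low end. Ndufa5, an accessory subunit of the matrix arm, had the largest range of the complex among genes above the line on all 6, 1.37: its readings of 16178, 11098, 7425, 20794, 11690 and 10704 were all far above the line. At the other end Ndufs8, an iron-sulphur subunit, read 3661, 3965, 3421, 4314, 5387 and 4764, with a range of 0.30.

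Ndufs4, an accessory subunit of the matrix arm, ran otherwise. It read 14639, 19638, 9902, 17982, 23255 and 13627, and its second probe 8347, 10349, 5837, 10109, 12514 and 7443. Both probes put the 6 arrays in the same order of intensity, with those labelled mock uterus and SHT brain at the top and that labelled mock ovary at the bottom.

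Complex II, succinate dehydrogenase, also belongs to the citric acid cycle. Its flavoprotein Sdha had the largest range among the 52 subunits above the line on all 6 arrays, 1.89, with readings of 18617, 9561, 4622, 18555, 10885 and 8647. The iron-sulphur subunit Sdhb read 12777, 14056, 9575, 15346, 13448 and 11891. Of the membrane anchors, Sdhc was the most even of the complex, at 5888, 5331, 4385, 6011, 6569 and 6763 (range 0.34). The other anchor, Sdhd, read 5654, 10570, 5568, 6347, 8513 and 9117 (range 0.89). Sdha was highest on the arrays labelled SHT ovary and mock brain, while Sdhd was lower on these and on that labelled mock ovary than on the other arrays.

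In complex III the Rieske iron-sulphur protein Uqcrfs1 had the smallest range, 0.29, at 13184, 12563, 12394, 13804, 13843 and 17217. The core protein Uqcrc1 read 4835, 3795, 4669, 5191, 5017 and 5088. Uqcr10, a small accessory subunit, had the largest range, 0.81, at 29178, 28732, 22843, 34533, 35596 and 24557. Uqcr11, another small subunit, came next with a range of 0.60, at 5101, 4056, 4186, 5935, 5021 and 5008. Relative to the median gene, no gene of this complex differed by 2-fold between any 2 arrays.

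Complex V is ATP synthase. The catalytic β subunit Atp5b read 3348, 2562, 1752, 3970, 2614 and 2085 (range 1.25, the largest of the complex among genes above the line on all 6), and the α subunit Atp5a1 read 6312, 8177, 5858, 7599, 5917 and 7450. Atp5o, the stalk protein OSCP, read 445, 263, 263, 554, 262 and 258 and passed the background line only on the array labelled SHT ovary, so its range of 1.42 has no measured low end. Atp5g1 and Atp5g3 encode the same ring subunit c. Atp5g3 had the smallest range of all the subunits above the floor, 0.22, at 32399, 37352, 32296, 36769, 40965 and 40788, whereas Atp5g1 read 6770, 5984, 5965, 9684, 6527 and 6923. A second Atp5g1 probe read 89.4 or less on every array, under the line.

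Complex IV, cytochrome c oxidase, holds the tissue isoforms. Of the forms used in most tissues, 6 with isoforms or core roles were far above the line on every array. Cox5b, another widespread form, read 643, 381, 370, 690.0, 427 and 379, while Cox6c and Cox7b were under the line on all 6. Cox4i1 read 32598, 26499, 24703, 31633, 32912 and 29353 (range 0.43, the smallest of complex IV), Cox5a 39220, 39892, 32439, 49309, 33486 and 35309, and Cox6a1 29151, 22460, 22487, 31359, 26364 and 24005. The brightest Cox7a2 probe read 35563, 30474, 25621, 37457, 33962 and 31222. Cox8a read 35025, 25557, 18084, 39834, 24874 and 24012, and Ndufa4 29879, 29223, 19891, 34640, 24000 and 33008. Among these 6 genes the array labelled SHT ovary gave the highest intensity for 5, all but Cox4i1, and that labelled mock ovary the lowest for 5, all but Cox6a1. The array labelled mock ovary also had the lowest median over all probes, and relative to the median gene it was the lowest for 0 of the 10 complex IV genes above the floor.

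Cox8b, whose promoter is shown above beside that of Cox8a, had the largest range of all subunits above the floor, 4.24, with its lowest readings under the line. It read 171, 159, 769, 185, 363 and 3615. The array labelled SHT uterus thus stood well above the rest, that labelled mock ovary came next, and 3 of the 6 were under the background line. Marker genes of skeletal muscle, heart muscle and brown fat, the tissues known for Cox8b, were read beside it. The 8 measured of 10 skeletal muscle genes summed to 11188 on the array labelled SHT uterus and 3953 on that labelled mock ovary, and to between 835 and 3647 on the others. Mb, the oxygen store of muscle, read 187, 123, 511, 142, 168 and 2958, and Actn3 stayed under the line on all 6. Pvalb, also on the skeletal muscle list, ran the other way, at 1379 on the array labelled mock brain, 1754 on that labelled SHT ovary and at most 22.9 elsewhere. Without Cox8b, the 4 measured of 5 brown fat genes summed to 17025 and 14439 on the arrays labelled SHT uterus and mock ovary and to between 1991 and 3545 on the others. Ucp1, the uncoupling protein, read 6623 and 3460 there and at most 50.6 elsewhere, while Elovl3 was under the line on all 6. The 3 measured of 5 heart muscle genes did not follow Cox8b. They summed to 3263 (SHT brain) and 4700 (mock uterus), against 1465 (mock ovary), 1522 (SHT uterus), 651 (mock brain) and 623 (SHT ovary). Of these genes Tnni3 read 2767 and 4167 on the arrays labelled SHT brain and mock uterus, and Tnnt2 1312 and 1324 on those labelled mock ovary and SHT uterus. The part of these cells in the Cox8b readings was not tested.

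The other muscle forms were dimmer. Cox7a1 read 23.1, 49.5, 38.7, 29.8, 65.9 and 142, highest on the array labelled SHT uterus and under the background line on all 6. Cox6a2 differed between its probes: the brighter one read 526, 198, 404, 451, 211 and 248, and the other 310, 31.0, 55.9, 305, 50.6 and 361. Only the second probe placed the array labelled SHT uterus high. The brighter probe passed the line on both arrays labelled ovary, and the second on that labelled SHT uterus alone.

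Cox6b2, a form known from testis, was above the line on 4 arrays. It read 360, 1050.0, 421, 330, 1448 and 650 (range 1.84), and a second probe read 333, 756, 321, 284, 951 and 458. Both probes were highest on the arrays labelled SHT brain and mock uterus. The 8 measured of 9 ovary markers summed to 93106 and 136242 on these arrays and to between 1262 and 4549 on the others. The 4 markers of oviduct and ciliated cells were also highest there, with sums of 27648.5 and 36047, against 200 to 756 on the others. The part of either group of cells in the Cox6b2 readings was not tested. The 4 measured genes of sperm and testis (Prm1, Prm2, Tnp1 and Tnp2) were under the line on every array, with sums between 83.9 and 183.

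The testis forms Cox7b2 and Cox8c were under the line throughout. Cox7b2 read 220.0, 53.8, 48.1, 161.8, 56.0 and 49.6, and Cox7b, its widespread counterpart, 256, 94.0, 80.7, 284, 86.9 and 84.2. Cox8c read 38.3 to 70.1, and Cox4i2, the lung form of subunit IV, 108 to 152. All readings of these 4 genes being under the line, no fold is given for them.

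Ndufa4l2, a paralogue of Ndufa4 induced by low oxygen and found in mural cells of vessels, read 42.6, 60.9, 827, 32.5, 87.6 and 370.2. It passed the line on 2 arrays, mock ovary and SHT uterus by label, and its mean log2 intensity was under the level floor. Those arrays also had the highest sums over the 5 measured of 6 smooth muscle genes, 92801 and 85172, against 50629 (SHT brain), 52448 (mock uterus), 3366 (mock brain) and 2550 (SHT ovary). Its readings were higher on the array labelled mock ovary than on that labelled SHT uterus, the reverse of Cox8b. The part of smooth muscle in them was not tested.

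**Figure D3:**
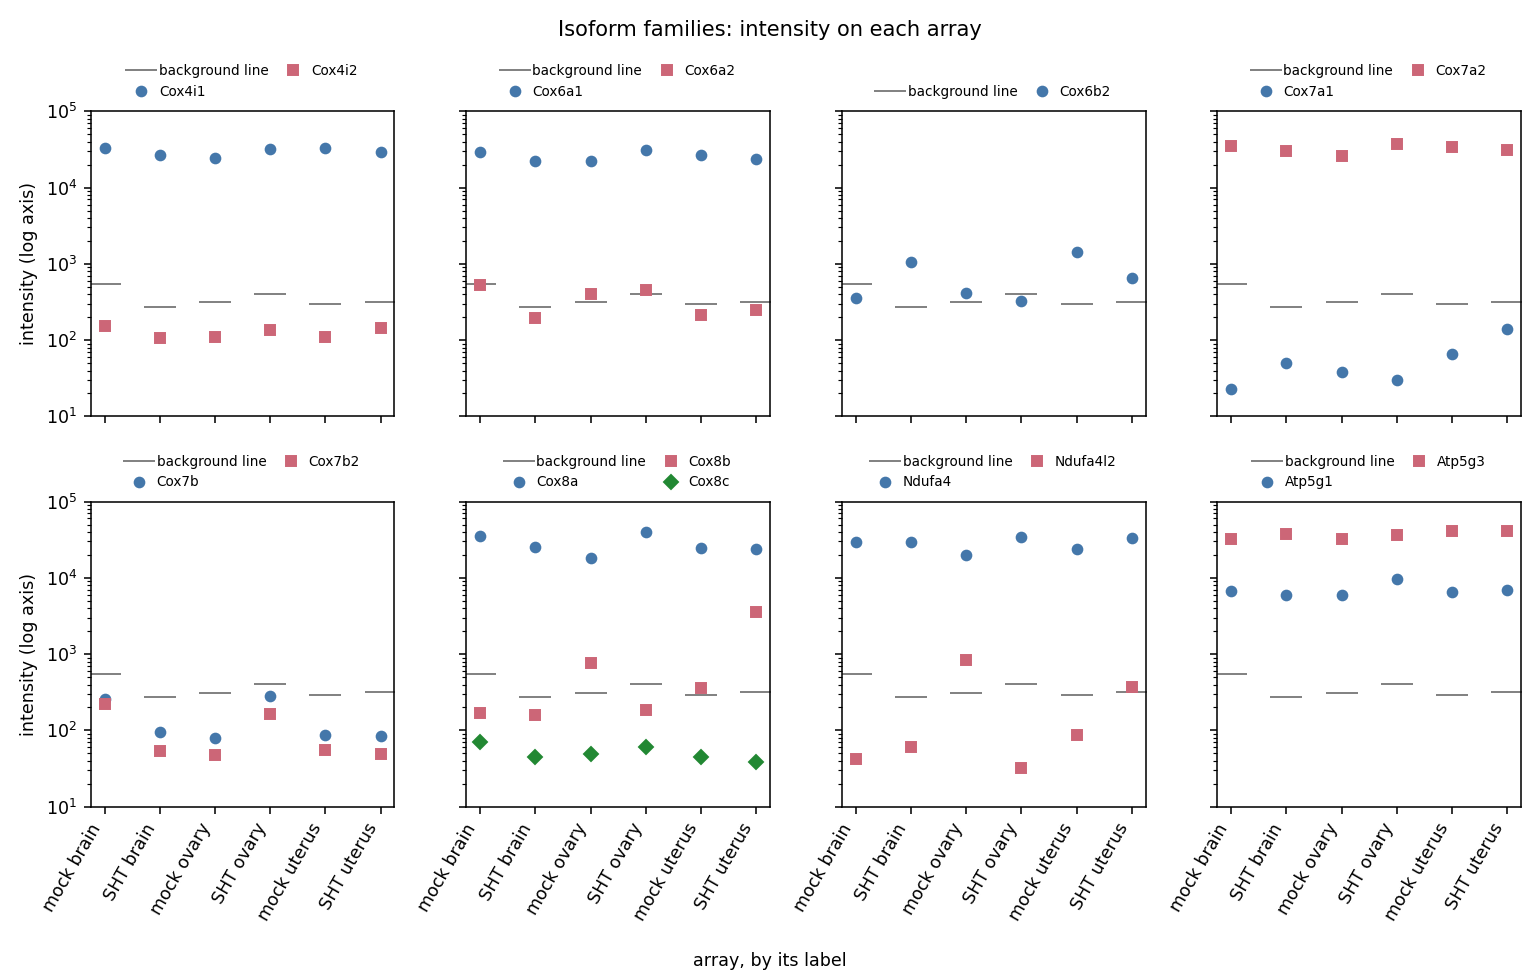
Intensity (log axis) of the members of 8 isoform families on each array (horizontal axis, by label), 1 reading per array, with the background line as a grey dash. Cox4i1, Cox6a1, Cox7a2, Cox8a, Ndufa4 and both Atp5g genes lie above the line on every array and Cox7b under it, while Cox8b reaches 3615 on the array labelled SHT uterus, Ndufa4l2 reaches 827 on that labelled mock ovary and Cox6b2 reaches 1448 on that labelled mock uterus.

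The next comparison set the SHT array against the mock array of each labelled tissue, the contrast the design was built for. With 1 array each there was no test, and a gene was counted at a 2-fold difference relative to the median gene. That gene differed by -0.04, 0.14 and 0.04 on the log2 scale (SHT minus mock) in the pairs labelled brain, ovary and uterus. In the pair labelled brain, 60 of the 73 genes passed the pair's level floor. Of these 2 were at least 2-fold higher on the SHT array and 3 lower, against 22.8% higher and 23.3% lower of 10740 genes. The 57 subunits among them had a median of -0.12, with 21 above 0 and 36 below. Cox6b2 was at least 1.99-fold higher, set against the background line since the mock array read under it, and Emc8 2.44-fold higher by its brighter probe. The other Emc8 probe read 807 on the mock and 233 on the SHT array, and averaging both gave -0.23. Ndufv2 was at least 2.02-fold lower and Dmac2l 2.36-fold lower, a difference of -1.24 that became -0.91, under 2-fold, with its probes averaged. Cox6a2 had a difference of -1.37, but both arrays read under their lines and no fold is given. Sdhd followed with 0.94.

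In the pair labelled ovary the subunits were nearly all higher on the SHT array. Among 63 genes past the floor, 9 stood at least 2-fold higher and 1 lower, against 23.0% and 23.6% of 10687 genes. Above 0 lay 56 of 60 subunits, with a median of 0.42, in each complex between 0.30 (complex III) and 0.50 (complex I). Sdha was 3.65-fold higher, Ndufa5 2.54-fold, Ndufb2 2.21-fold, Atp5b 2.06-fold, Ndufb9 2.01-fold and Cox8a 2.0-fold. Ndufv2 was at least 1.67-fold higher. Dmac2l and Dmac2, which are not subunits, were 4.33-fold and 3.39-fold higher. The only gene counted as lower was Cox8b, by at least 2.10-fold, followed by Emc8 (-0.70) and Cox6b2 (-0.49). With the probes of Emc8 averaged its difference was 0.47, in the other direction. Ndufa4l2, under the floor, was at least 2.26-fold lower. Beside these differences stand the brain markers, whose 7 measured genes summed to 7507 on the mock and 160345 on the SHT array of this pair, and their part in the result was not tested.

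The pair labelled uterus differed least. Among 59 genes past the floor 1 stood at least 2-fold higher, Cox8b, by 9.70-fold, and 1 lower, Cox6b2, by 2.28-fold, against 12.6% and 9.04% of 10757 genes. The 56 subunits had a median of -0.12, with 16 above 0 and 40 below. Next in size came Ndufs4 (-0.81) and Emc8 (-0.69) among the lower, and Ndufb10 (0.44) and Ndufa4 (0.42) among the higher. Ndufa4l2, under the floor, was at least 1.22-fold higher.

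**Figure D4:**
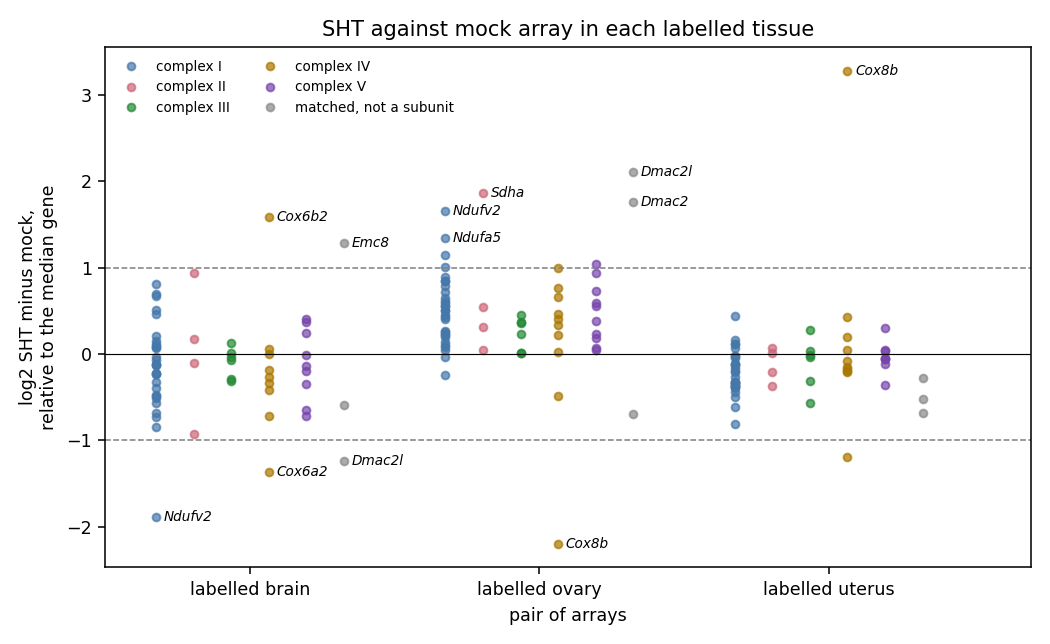
Log2 difference of the SHT from the mock array, relative to the median gene, for each matched gene above the pair's level floor (points, coloured by complex) in the pairs labelled brain, ovary and uterus, with dashed lines at 2-fold. Most points lie inside the lines, those labelled ovary sit mostly above 0, and Cox8b stands at -2.20 in the pair labelled ovary and at 3.28 in that labelled uterus.

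Of 58 genes above the floor in all 3 pairs, 4 were higher on the SHT array in each, 0 were lower in each, and 36 were lower in the pair labelled brain and higher in that labelled ovary. Such signs were not counted over all genes. Nearly the same profile (correlation 0.996 over all probes) stood on the mock side of the brain label and the SHT side of the ovary label. Signs under these labels are therefore not independent, and the part of this likeness in the 36 was not tested. The average SHT effect over the 3 labelled tissues, tested with limma across 10754 genes with tissue as a block, passed an adjusted p of 0.05 for 0 of 61 genes, and for 0% of all genes. At an unadjusted p of 0.05 it passed for 0 of the 61 and for 4 of all genes, and the smallest adjusted p among the 61 was 0.999964 (Ndufa4, log2 SHT minus mock 0.41 ± 0.30, SE). This fit measures the spread between the labelled tissues, 4 of whose arrays went against their labels, and not the spread between mice.

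All 15 pairs of arrays were then compared without regard to label. The share of the matched genes at least 2-fold apart was below that of all genes above the floor in each of the 15 pairs. No share over genes as bright as the subunits was counted for these pairs. In the closest pair the share of all genes was itself so small that a count of 0 says little. Between the arrays labelled SHT ovary and mock brain, 0 of 63 genes were 2-fold apart, against 0.151% of all genes, and between those labelled SHT brain and mock uterus 0 of 60, against 6.49%. The arrays labelled SHT uterus and mock ovary were 2-fold apart for 3 of 61 (Cox6a2, Cox8b and Ndufa4l2), against 10.6%. Of these, Cox6a2 read 248 on the array labelled SHT uterus, under its line of 318, and 404 on that labelled mock ovary. Its other probe ran the opposite way, at 361 and 55.9. In all 15 pairs readings under the line were counted as they stood, among them some of Cox6a2, Cox6b2, Cox8b, Ndufa4l2, Ndufv2 and Atp5o. At the far end, those labelled SHT ovary and SHT uterus were apart for 11 of 62 (17.7%), against 45.8%, and those labelled mock brain and mock ovary for 5 of 61 (8.20%), against 46.3%. Between the SHT and mock arrays of a label, 5 of 60 (brain, against 46.2%), 10 of 63 (ovary, against 46.6%) and 2 of 59 (uterus, against 21.6%) were apart. Those labelled mock brain and SHT uterus were apart for 8 of 61, against 46.1%, mock brain and mock uterus for 6 of 61, against 45.0%, SHT brain and SHT ovary for 8 of 62, against 45.4%, and SHT ovary and mock uterus for 9 of 61, against 44.0%. The array labelled SHT brain was apart from that labelled SHT uterus for 1 of 60 (Cox8b), against 18.2%. The isoform genes Cox6a2, Cox6b2, Cox8b and Ndufa4l2 made up the whole count of 4 of 61 for SHT brain and mock ovary, against 21.2%, and of 4 of 60 for mock ovary and mock uterus, against 26.5%. In the pair labelled SHT ovary and SHT uterus the 11 were Atp5b, Atp5o, Cox5b, Cox6a2, Cox8a, Cox8b, Dmac2, Dmac2l, Ndufa5, Ndufv2 and Sdha, and in that labelled mock brain and mock ovary the 5 were Cox8b, Dmac2, Dmac2l, Ndufv2 and Sdha.

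**Figure D5:**
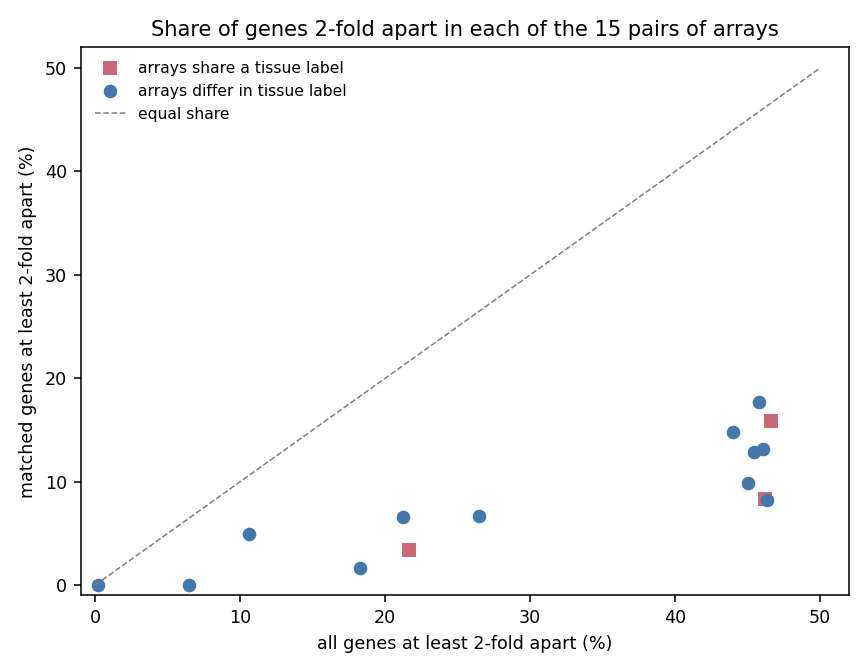
Share of the matched genes at least 2-fold apart (vertical axis, percent) against the share of all genes (horizontal axis, percent), 1 point for each of the 15 pairs of arrays, both over genes above the pair's level floor. Squares are pairs that share a tissue label, and each point lies on or under the dashed line of equal shares, at most 17.7% high.

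Related genes were counted in 3 lists. Of 48 assembly factors 43 were measured and 36 passed the floor, with a median range of 0.71 and 27 under 2-fold, close to the subunits' 0.81. In the pairs labelled brain, ovary and uterus, 1, 4 and 0 of the 36 were at least 2-fold higher on the SHT array and 3, 0 and 0 lower. Ttc19, a complex III assembly factor, varied most, at 905, 101.3, 134, 940, 154 and 198. Ndufaf5 read 3402, 1196, 720.1, 3558, 1665 and 1116, and Ndufaf3 4404, 2414, 1583, 5288, 3188 and 1786, both complex I assembly factors. These 3 were highest on the arrays labelled SHT ovary and mock brain.

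The citric acid cycle and pyruvate dehydrogenase list had 18 of 19 genes measured and 17 above the floor, with a median range of 0.93 and 9 under 2-fold. In the same pairs 2, 3 and 0 of 17 were higher and 3, 2 and 1 lower. Dlat and Pdhx, subunits of pyruvate dehydrogenase, read 1998, 420.2, 262, 1840, 561 and 583 and 1132, 359, 181, 1104, 548 and 310. Both were under the background line on the array labelled mock ovary, and Pdhx also on that labelled SHT uterus. Suclg2, the GTP-forming subunit of succinyl-CoA ligase, ran opposite to Dlat and Pdhx, at 1187, 4245, 1988, 982, 5483 and 3543.

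Regulators of mitochondrial biogenesis (with the acyl carrier protein gene; cytochrome c itself is not analysed here) had a median range of 1.57 over the 13 of 16 measured genes above the floor, 5 of them under 2-fold, near the 1.43 and 31.6% of all genes. In the 3 pairs 4 of 13, 3 of 12 and 0 of 12 were higher and 2, 3 and 0 lower. The nuclear receptor Esrrg read 1590.1, 82.5, 40.1, 1756, 136 and 154, and the coactivator Ppargc1b 921, 286, 369, 876, 265 and 517. Ndufab1, the acyl carrier protein that is also a complex I subunit, was low on the arrays where these were high, at 134, 449.9, 459, 141, 361 and 449.97.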

How the data were processed

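The deposited table gives linear intensity for 26423 probes on 6 arrays. limma appears in the submitters' processing notes without its version or role. Not given in the sources used here is how background was corrected and arrays were scaled. Each column was matched to its sample by name. Platform annotation gave 1 symbol for 20377 probes, several for 0 and none for 6046, and 2126 older symbols were updated. The members and lists were chosen with earlier results of these data known.

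Values below an array's 5th percentile were raised to it before log2. Differences are relative to the median gene above the level floor. The average SHT effect used limma 3.58.1 in R 4.3.3 (lmFit, then eBayes with a trend, tissue as a block, Benjamini-Hochberg, 2-sided). This was tested on simulated data with 200 of 10754 genes changed: 1% of 2-fold and 27% of 4-fold changes were recovered at the median residual of the real fit. Every gene was given that same noise, 0.75 on the log2 scale. With the noise of the closest pair of arrays, 0.13, 100% of both were recovered. Residuals of the matched genes themselves ran from 0.017 (Atp5a1) to 1.92 (Cox8b), and recovery at these was not simulated. A single array per group limits the precision.

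Named genes were the isoform families, core catalytic subunits, in each complex the 2 of largest and 1 of smallest range, and in each labelled pair the 3 furthest in each direction. Other genes at 2-fold, in a labelled pair or between arrays, were named after their values were seen. Python 3.11.15, numpy 2.4.6 and pandas 2.3.3 were used. Alternatives changed the scaling, the probe choice, the level floor, the fold and, in the test, the block, the trend and the tissues entering.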

Additional observations from a re-analysis of the deposited data

Results flagged for a closer look

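In 4 matched genes the readings of the SHT array were 2-fold above the mock array in 1 labelled tissue and 2-fold below it in another. Set against the background line, Cox6b2 in the pair labelled brain and Ndufv2 in that labelled ovary have bounds under 2-fold. How many of all genes had such opposite differences was not counted. In either direction, 22.8% and 23.3% (brain), 23.0% and 23.6% (ovary) and 12.6% and 9.04% (uterus) of all genes passed 2-fold. With 1 pair of arrays per tissue, these differences were not tested. All values are log2 SHT minus mock, relative to the median gene, and those with 1 reading under the background line are not measured sizes. Cox6b2 was at 1.58 in the pair labelled brain and -1.19 in that labelled uterus, the first with a bound of at least 1.99-fold. Cox8b was at -2.20 in the pair labelled ovary and 3.28 in that labelled uterus, the first with a bound of at least 2.10-fold. Dmac2l was at -1.24 in the pair labelled brain and 2.11 in that labelled ovary, and Ndufv2 at -1.89 and 1.65 in the same pairs, with bounds of at least 2.02-fold and 1.67-fold. With its probes averaged, Dmac2l in the pair labelled brain was at -0.91, under 2-fold.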

How the results depend on the processing

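The labels give no replicate numbers, and the test of the average SHT effect paired the arrays by labelled tissue. It called 0 of the matched genes under each of its 9 alternatives, no block and leaving out each labelled tissue in turn included. Under each it also called 0 of all genes, so these counts show nothing particular to the matched genes. Of 150 alternative medians of a complex on an array, 142 moved by less than 0.21. This limit was the median absolute difference of the matched genes themselves in the closest pair of arrays. Their signed median there was also 0.21, with 56 of 63 higher under the label SHT ovary, against an absolute 0.12 for all genes. The limit thus holds the genes' own offset and is no measure of noise. Most medians were themselves under 0.21 in size, so the 142 say little about stability. Many lie near 0, and signs changed for 9 of 30 as deposited, 7 with quantile normalization, 2 with the mean over genes and 1 with probes averaged. As deposited, with no reference to the median gene, the medians on the array labelled mock ovary were -0.36, -0.41, -0.23, -0.29 and -0.30 for complexes I to V, and that of complex IV was -0.30 after quantile normalization. With the mean in place of the median, complex IV was at 0.21 on the array labelled SHT ovary and at 0.037, a change of sign from -0.28, on that labelled SHT uterus, where Cox8b is high.

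Counts at 2-fold are small and moved with the settings, and the share of all genes was not counted under each setting. In the pair labelled brain, those higher went from 2 to 4 with arrays centred on their medians and 3 with quantile normalization. They went to 1 with a gene's probes averaged, 4 with no floor, 1 with a floor at the 75th percentile and 0 at 3-fold. Those lower went from 3 to 1, 5, 1 and 1 under the last 4 of these. Emc8 there changed sign, to -0.23, with its probes averaged, which run opposite to each other. In the pair labelled ovary, those higher went from 9 to 11 as deposited, 8 with arrays centred and 7 with quantile normalization. They went to 12 with no floor, 6 with a floor at the 75th percentile and 4 at 3-fold. Those lower went from 1 to 2 with no floor and 0 at the 75th percentile. In the pair labelled uterus, those higher went from 1 to 3 with no floor and 0 at the 75th percentile, and those lower from 1 to 0 at the 75th percentile and at 3-fold.

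Of the 15 pairs of arrays, as deposited the counts were 5 for mock brain against SHT uterus (from 8), 1 for SHT brain against mock uterus (from 0), 9 for mock ovary against mock uterus (from 4), 5 for SHT ovary against mock uterus (from 9) and 6 for SHT ovary against SHT uterus (from 11). Quantile normalization gave 8 for SHT brain against mock ovary (from 4), 2 for SHT brain against SHT uterus (from 1) and 7 for mock ovary against mock uterus. Averaging a gene's probes gave 2 for mock brain against SHT brain (from 5), 3 for mock brain against mock uterus (from 6) and 4 for SHT brain against SHT ovary (from 8). No floor gave 9 for mock brain against SHT brain, 8 for mock brain against mock ovary (from 5), 3 for SHT brain against SHT uterus and 4 for mock uterus against SHT uterus (from 2). The cause was not tested. Signal over background limits the 12 genes under the line on all arrays.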
